A study of Mus musculus with 6 samples.

Results

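Messenger RNA of 40 genes of fatty acid oxidation, ketone body formation and the peroxisome proliferator-activated receptor PPARalpha programme was compared between livers of mice in which both copies of Srf were targeted and control livers. The members are a list of named genes, chosen by function, and every probe set annotated with exactly 1 gene symbol, that of a member, was taken. This gave 72 probe sets for 39 members, of which 69 probe sets of the same 39 members passed the filter on dim signals, among 13144 genes tested in all. Ucp2 had no such probe set. The mutant mice were Srf loxP/loxP AlfpCre and the control mice Srf loxP/+ AlfpCre, with 3 male mice aged 3 weeks in each group and 1 array per mouse. Cre was thus present in all 6 mice, and the controls carried 1 loxP-flanked copy of Srf. AlfpCre is driven by albumin regulatory sequences with enhancers of the alpha-fetoprotein gene, so that recombination is expected in hepatocytes and other cells of the hepatoblast lineage, while endothelial, Kupffer and stellate cells are not targeted. The sources used here do not give the feeding state of the mice.

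Fatty acids enter mitochondria as carnitine esters and are shortened by beta-oxidation, and liver turns the resulting acetyl-CoA into ketone bodies. Peroxisomes shorten very long chains and branched chains, and acyl-CoA thioesterases release free fatty acids and coenzyme A again. PPARalpha is a nuclear receptor that switches on many of these genes when fatty acids reach the liver in fasting and, in suckling animals, from milk fat.

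All values are log2 of the scaled array signal, so that 1 unit is a 2-fold difference in signal. A gene is represented by its brightest probe set, and differences are mutant minus control. The test was limma, with p-values adjusted by Benjamini and Hochberg's method over 27022 probe sets. At an adjusted p under 0.05, 0.074% of probe sets passed and none of the members' 69 did; before adjustment, 7 of the 69 were higher and 8 lower at that level, against 7.6% and 6.18% of all probe sets. At an unadjusted p under 0.05, 5 of the 39 members were higher and 3 lower in mutant liver, against 7.36% and 7.01% of all genes tested. On the deposited scaling, which was not used for the main values, 2 members were higher and 4 lower, against 1.46% and 13.8% of all genes. The groups did not overlap for 5 members that were higher and 3 that were lower, where this held for 14.1% and 10.8% of all genes. The median difference over the members was -0.03, beside 0.06 over all genes tested. For 23 members, or 59.0%, the difference lay within 0.5 of 0, a share close to the 55.9% of all genes.

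The 6 arrays were not alike in ways that touch these values. Mutant 1 correlated with the controls at 0.781 to 0.809 over the probe sets kept, mutant 3 at 0.871 to 0.899 and mutant 2 at 0.919 to 0.931, beside 0.937 to 0.941 among controls. The 3' to 5' signal ratio of the Pcx control probe sets, a measure of RNA integrity that rises as RNA is broken, was 17.3, 6.39 and 10.5 in mutants 1 to 3, against 4.94, 4.44 and 7.03 in controls 1 to 3. Srf itself, on its brighter probe set, read 4.17, 5.24 and 2.54 in mutants 1 to 3 and 5.31, 5.14 and 5.11 in controls 1 to 3, with mutant 2 inside the control range (adjusted p = 0.398, limma). Its dimmer probe set read 3.29, 0.00 and 1.99 in mutants 1 to 3 and 3.00, 3.69 and 3.37 in controls 1 to 3, with mutant 2 at the floor and mutant 1 inside the control range (adjusted p = 0.411, limma). The positions of both relative to the floxed segment are unknown, so neither is a check of the labels. All 9 hepatocyte markers measured lay above background in both groups, with summed linear signals of 56179 to 69949 in mutants and 45755 to 51547 in controls. For Kupffer cell and macrophage markers, with 11 of 11 above background, the sums were 1296 to 1991 and 1845 to 2535. The sums of 8 endothelial markers were 363 to 1374 in mutants and 677 to 1031 in controls, and those of 8 stellate cell markers 891 to 3467 and 2713 to 3032. Of the 8 stellate markers, 3 were lower in mutants at an unadjusted p under 0.05, and none passed limma's adjusted threshold. These were Col3a1, Col1a1 and Lrat, with log2 differences of -3.56, -2.53 and -1.59. The others differed by -1.15 (Reln), -0.31 (Pdgfrb), -0.05 (Dcn), 0.21 (Rgs5) and 0.75 (Des). At the same level the hepatocyte markers Tat and Cps1 were higher, and Timd4 of Kupffer cells and Alas2 of erythroid cells lower. Of all genes, 7.36% were higher and 7.01% lower at this level. None of 3 adipocyte markers exceeded background, with sums of 3.00 to 15.6 and 4.63 to 14.3 and Adipoq at the floor on all mutant arrays. Cholangiocyte markers (2 of 4 above background) summed to 39.2 to 62.6 and 33.9 to 36.7, those of lymphocytes and neutrophils (4 of 8) to 130 to 498 and 134 to 256, and those of erythroid cells (2 of 3) to 18.7 to 364 and 249 to 487. In whole liver, fewer cells of a type and less RNA per cell cannot be told apart.

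Mutant 1 was the lowest of the 6 arrays for 20 of the 39 members (51.3%), where this held for 31.7% of all genes tested, and mutant 3 was the highest for 19 (48.7%), where this held for 20.5%. Relative to the control mean, the median deviation of the 39 members was -0.38, -0.03 and 0.31 on mutant arrays 1 to 3, and -0.03, -0.09 and 0.13 on control arrays 1 to 3. The 3 mutant livers therefore did not shift in 1 direction over the list. A 3'/5' RNA index, the mean log2 ratio of the Actb, Gapdh and Pcx control probe sets, was 2.18, 1.18 and 1.57 in mutants 1 to 3, against 0.91, 0.78 and 1.22 in controls 1 to 3. Differences adjusted for this index are given for the members with the smallest p in each role and those under an unadjusted p of 0.05, and its part in the results was not tested further.

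**Figure D1:**
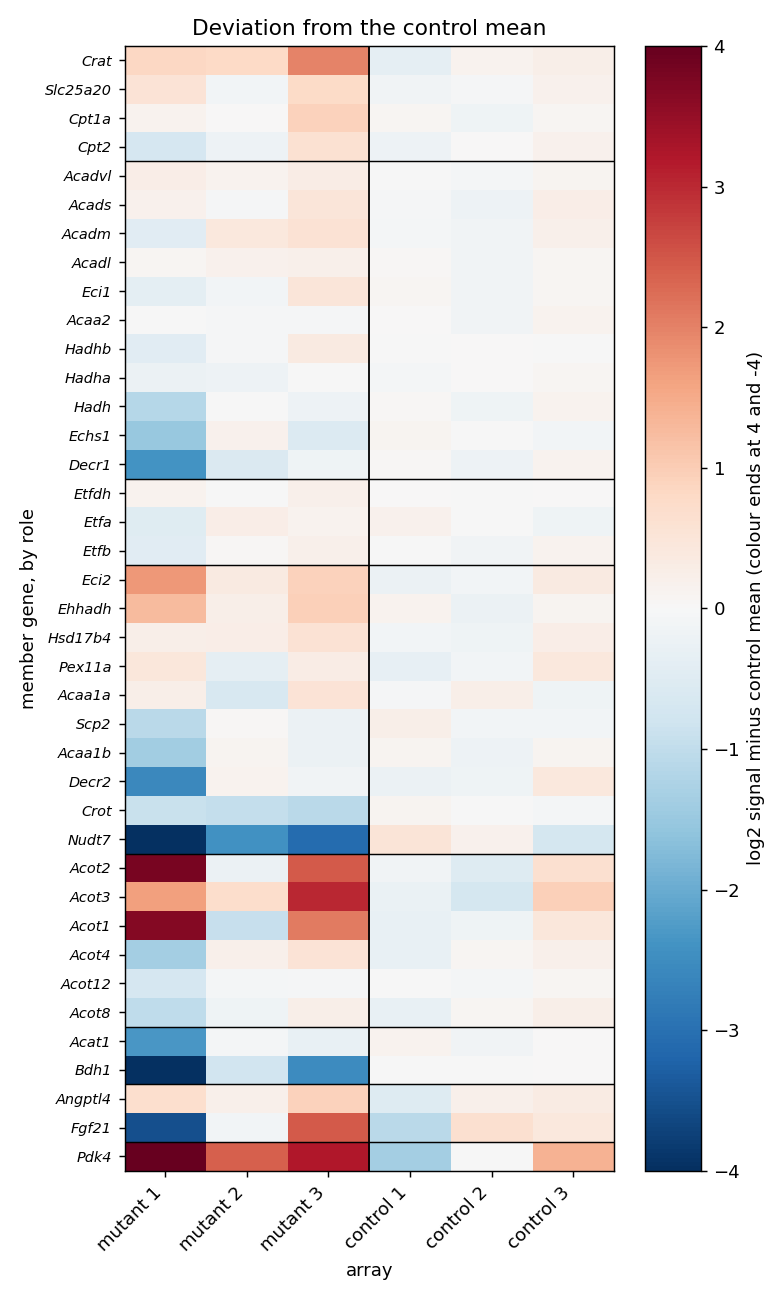
Each row is 1 of the 39 measured members, ordered by role, and each column 1 array, with mutants left of controls. Colour gives the log2 signal minus the mean of the 3 controls and ends at 4 and -4. Pdk4 is red on all 3 mutant arrays, Nudt7 and Crot are blue on all 3, and Acot1 and Acot2 are red on mutants 1 and 3 but not on mutant 2.

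The largest difference towards higher signal was in Pdk4, pyruvate dehydrogenase kinase 4, which shuts pyruvate out of oxidation when fat is burned. Its probe set 1417273_at read 11.58, 7.64 and 8.46 on mutant arrays 1 to 3, against 3.91, 5.24 and 6.64 on control arrays 1 to 3. All mutants lay above all controls, but both groups were widely spread, with means of 9.23 ± 2.08 in mutant liver and 5.26 ± 1.36 in control liver (SD, n = 3 each). The difference was 3.96 (SE 1.04, 95% confidence interval 1.57 to 6.36), 15.6-fold, and did not pass (adjusted p = 0.270, limma). It was 2.79 without mutant 1 and 1.21 after adjusting for the 3'/5' RNA index.

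The largest difference towards lower signal was in Nudt7, a peroxisomal nudix hydrolase that cleaves coenzyme A and its esters. On probe set 1431302_a_at the signals were 7.21, 8.90 and 8.23 on mutant arrays 1 to 3, against 11.82, 11.49 and 10.62 on control arrays 1 to 3. The lowest control lay well above the highest mutant, and the means were 8.11 ± 0.85 in mutant liver and 11.31 ± 0.62 in control liver (SD, n = 3 each). The difference of -3.20 (SE 0.47, 95% confidence interval -4.28 to -2.12), a 9.17-fold lower signal, did not pass (adjusted p = 0.0757, limma). It passed without mutant 1 (-2.75, adjusted p = 0.0242, limma) and without mutant 2 (-3.59, adjusted p = 0.0159, limma), settings in which 0.485% and 2.14% of all probe sets passed. Mutant 2 was the mutant nearest the controls, so leaving it out adds no support for a difference. The difference also passed after log2(signal + 32), where 0.396% of all probe sets did. These were 3 of 16 alternative settings. It did not pass without mutant 3 (adjusted p = 0.298, limma) or without controls 1 to 3 in turn (adjusted p = 0.429, 0.438 and 0.158, limma). After adjusting for the 3'/5' RNA index it was -1.98 (adjusted p = 0.221, limma). The other 3 probe sets of Nudt7 also read lower in all mutants than in all controls. Among these, 1430896_s_at had 5.09, 7.83 and 6.94 in mutants 1 to 3 and 11.30, 10.98 and 9.64 in controls 1 to 3, a difference of -4.02 (adjusted p = 0.112, limma). The dim probe sets 1427513_at and 1453685_at had mutant means below background, which makes them at least 6.82-fold and 3.28-fold lower.

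The promoters of these 2 genes are shown because they mark the ends of the range, with that of Acadm, a textbook PPARalpha target near the middle of it. PPARalpha binds, with its partner RXR, to repeats of the half-site AGGTCA spaced by 1 base. The sequences are the 250 bases before the gene start in RefSeq on GRCm38.p6, for Pdk4 chr6:5496279-5496528 on the minus strand, for Nudt7 chr8:114133324-114133573 on the plus strand and for Acadm chr3:153944644-153944893 on the minus strand. Capitals mark AGGTCA on either strand, which only the Acadm window of the 3 held.
Pdk4: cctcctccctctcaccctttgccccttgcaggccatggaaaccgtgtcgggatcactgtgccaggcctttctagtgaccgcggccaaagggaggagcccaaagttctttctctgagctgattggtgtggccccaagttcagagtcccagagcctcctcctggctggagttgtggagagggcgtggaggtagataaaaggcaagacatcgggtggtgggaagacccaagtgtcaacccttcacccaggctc
Nudt7: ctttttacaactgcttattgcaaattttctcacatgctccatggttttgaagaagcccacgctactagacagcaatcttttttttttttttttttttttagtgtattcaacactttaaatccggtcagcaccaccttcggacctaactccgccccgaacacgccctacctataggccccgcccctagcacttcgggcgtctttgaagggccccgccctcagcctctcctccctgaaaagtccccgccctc
Acadm: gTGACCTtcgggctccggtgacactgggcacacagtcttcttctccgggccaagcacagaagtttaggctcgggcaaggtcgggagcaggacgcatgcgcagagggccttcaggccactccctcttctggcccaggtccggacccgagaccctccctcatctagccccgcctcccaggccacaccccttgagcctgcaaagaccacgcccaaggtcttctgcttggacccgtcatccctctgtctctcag
Windows were found for 34 of the 40 members, 37 in all since some genes have more than 1 start. The full repeat, AGGTCA followed by any base and AGGTCA, and a looser one built from AGGNCA in the same way, were in none of them on either strand, and in 0.0335% and 0.338% of 32851 windows of the same length. The single half-site, which the full repeat contains, was in 7 of the 37 (18.9%), those of Acadm, Scp2, Echs1, Acadvl, Acot4, Acot12 and Cpt1a, and in 14.0% of all windows. The absence of a match says only that these letters are not in the window.

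The carnitine shuttle, which carries acyl groups into mitochondria, had 3 of 4 members with a positive difference and a median of 0.38. Crat, carnitine acetyltransferase, which moves short acyl groups, differed most among them. Its signals were 6.60, 6.56 and 7.74 on mutant arrays 1 to 3, against 5.40, 5.90 and 5.99 on control arrays 1 to 3. Every mutant lay above every control, mutant 3 furthest, and the difference was 1.20 (SE 0.37, adjusted p = 0.307, limma), or 2.30-fold. It was 1.21 after adjusting for the 3'/5' RNA index, 0.75 on the deposited scaling and 0.70 as a mean over its probe sets, and in the last 2 settings, as without control 1 (1.02), its unadjusted p was above 0.05. The other 2 probe sets of Crat had overlapping groups with differences of 0.47 and 0.42. For Cpt1a, the outer-membrane carnitine palmitoyltransferase that controls entry, probe set 1460409_at gave 9.94, 9.79 and 10.72 on mutant arrays 1 to 3, against 9.86, 9.63 and 9.88 on control arrays 1 to 3. Only mutant 3 stood above the controls (difference 0.36, 95% confidence interval -0.28 to 1.01). Another Cpt1a probe set, 1438156_x_at, read 8.64, 6.70 and 8.23 in mutants 1 to 3 and 6.86, 6.65 and 7.21 in controls 1 to 3. With mutant 2, the array inside the control range, left out, it passed (1.53, adjusted p = 0.0458, limma), as did 2.14% of all probe sets. That setting leaves out the mutant array without the high signal, so it adds no support for a difference. Slc25a20, the carnitine-acylcarnitine translocase of the inner membrane, had 10.40, 9.76 and 10.61 in mutants 1 to 3 and 9.72, 9.82 and 10.02 in controls 1 to 3, with mutant 2 among the controls. Its other probe set, 1423109_s_at, read 8.26, 8.37 and 8.95 in mutants 1 to 3 and 8.52, 8.37 and 8.64 in controls 1 to 3. There mutant 1 was the lowest array and the difference was 0.02. Cpt2, the inner-membrane transferase, had a difference of -0.09 (95% confidence interval -0.87 to 0.68).

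**Figure D2:**
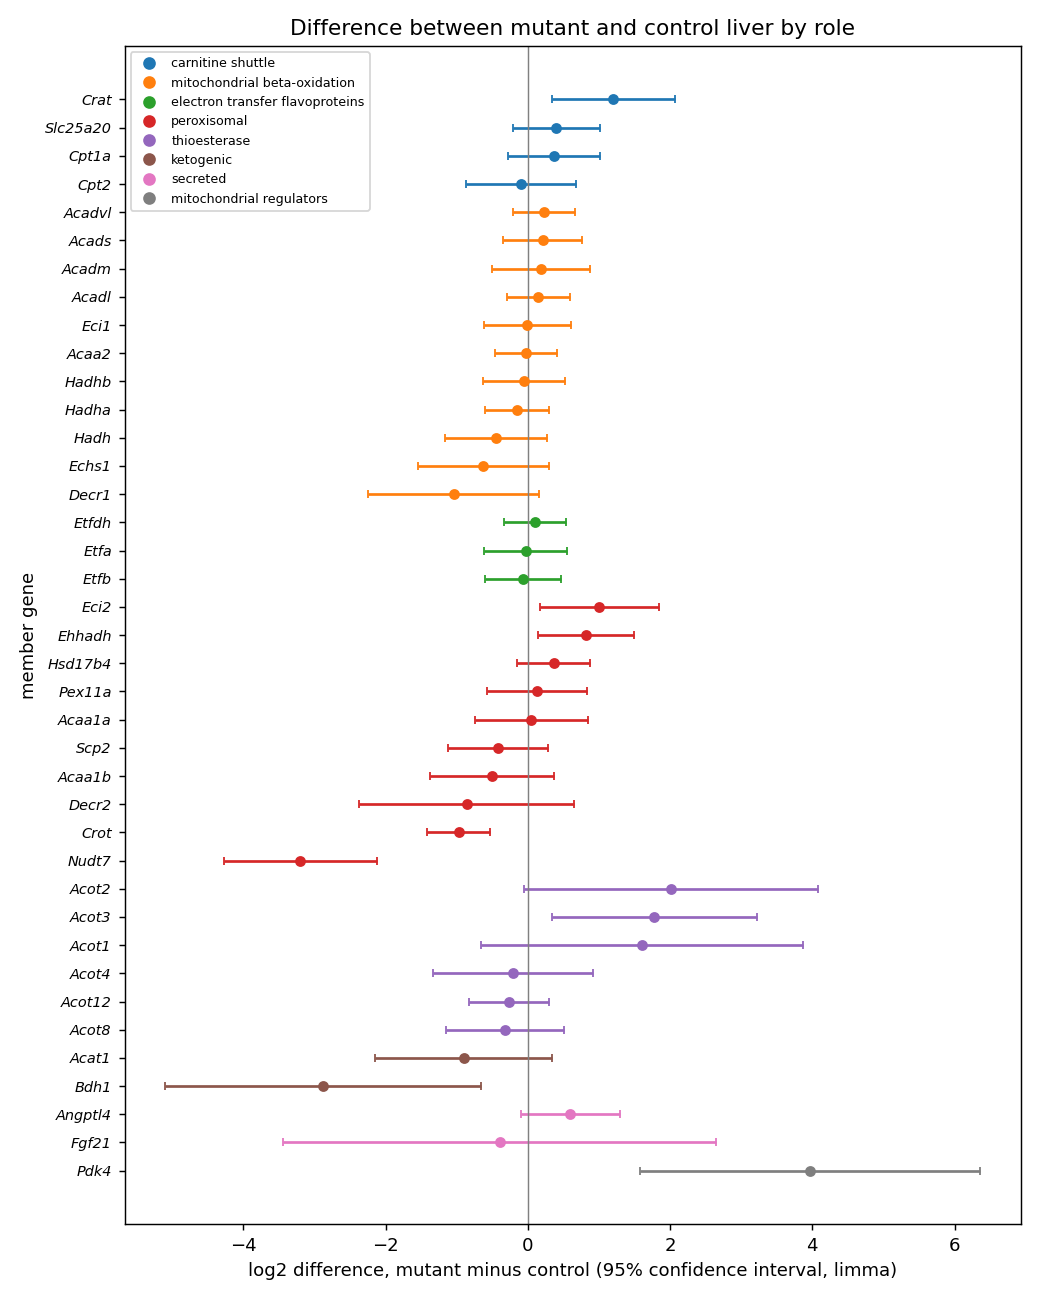
Points give the log2 difference, mutant minus control, of the brightest probe set of each of the 39 measured members, coloured by role, and bars the 95% confidence interval of limma. The intervals of Crat, Ehhadh, Eci2, Acot3 and Pdk4 lie above 0 and those of Crot, Nudt7 and Bdh1 below it, before adjustment; those of mitochondrial beta-oxidation all include 0.

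In the mitochondrial beta-oxidation spiral none of 11 members had an unadjusted p under 0.05, and the median difference was -0.03, with a range of -1.04 to 0.23. The 4 acyl-CoA dehydrogenases, which open the spiral for very long, long, medium and short chains, differed by 0.23 (Acadvl), 0.15 (Acadl), 0.19 (Acadm) and 0.21 (Acads). Acadvl was the 1 member of the spiral whose groups did not overlap, with 11.04, 10.91 and 11.08 in mutants 1 to 3 and 10.75, 10.70 and 10.88 in controls 1 to 3 (95% confidence interval of the difference -0.20 to 0.67). Acadm read 10.25, 11.11 and 11.29 on mutant arrays 1 to 3, against 10.63, 10.56 and 10.90 on control arrays 1 to 3. Here mutant 1 was the lowest array and mutants 2 and 3 the highest. Hadha and Hadhb, the subunits of the trifunctional protein that handles long chains, differed by -0.15 (95% confidence interval -0.60 to 0.30) and -0.05 (-0.63 to 0.52). A dim second probe set of Hadhb, 1442732_at, had a control mean below background and was at least 3.08-fold higher in mutant liver, without passing (adjusted p = 0.335, limma). The thiolase Acaa2, which ends each cycle, differed by -0.03 on its brightest probe set. Another of its probe sets, 1455061_a_at, read 9.85, 10.95 and 10.41 in mutants 1 to 3 and 11.24, 11.22 and 11.05 in controls 1 to 3, lower in all mutants (difference -0.76, adjusted p = 0.341, limma). The isomerase Eci1, which acts on unsaturated chains, differed by -0.01.

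Decr1, dienoyl-CoA reductase, needed for polyunsaturated chains, had the smallest p of the spiral. Its signals were 8.04, 9.85 and 10.26 on mutant arrays 1 to 3, against 10.48, 10.22 and 10.57 on control arrays 1 to 3. Mutant 1 lay far below the other 5 arrays, and mutant 3 within the controls. The difference was -1.04 (SE 0.52, adjusted p = 0.392, limma) with all arrays, -0.37 without mutant 1 and -0.01 after adjusting for the 3'/5' RNA index. Echs1, the enoyl-CoA hydratase, showed the same low mutant 1, with 8.80, 10.51 and 9.79 in mutants 1 to 3 and 10.44, 10.31 and 10.23 in controls 1 to 3, and Hadh, the hydroxyacyl-CoA dehydrogenase for shorter chains, likewise with 10.78, 11.90 and 11.73 in mutants 1 to 3 and 11.96, 11.74 and 12.04 in controls 1 to 3. Among the probe sets of these genes, Hadh 1436756_x_at went the other way at 0.62.

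The electron transfer flavoproteins pass electrons from the dehydrogenases to the respiratory chain. Etfa, Etfb and Etfdh differed by -0.03, -0.07 and 0.10, with 95% confidence intervals of -0.61 to 0.56, -0.61 to 0.47 and -0.33 to 0.54. Etfdh was the steadiest, at 10.14, 9.97 and 10.19 in mutants 1 to 3 and 10.004, 9.98 and 10.005 in controls 1 to 3, and its sign turned on the deposited scaling (-0.35) and with arrays centred on their median (-0.13); it was 0.02 after adjusting for the 3'/5' RNA index.

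Peroxisomal members went both ways, with 5 positive and 5 negative differences. Eci2, the enoyl-CoA isomerase of peroxisomes and mitochondria, read 11.99, 10.59 and 11.16 on mutant arrays 1 to 3, against 10.002, 10.15 and 10.59 on control arrays 1 to 3. Mutant 2 was level with control 3 to within rounding, and the difference of 1.002 (SE 0.36, adjusted p = 0.332, limma) was 0.63 without mutant 1. Ehhadh, the bifunctional enzyme that carries out the hydratase and dehydrogenase steps of peroxisomal oxidation, gave 11.42, 10.41 and 11.12 on mutant arrays 1 to 3, against 10.30, 9.93 and 10.26 on control arrays 1 to 3. Mutants 1 and 3 stood apart from the controls and mutant 2 just above them (difference 0.82, SE 0.29, adjusted p = 0.332, limma). After adjusting for the 3'/5' RNA index these 2 differences were 0.08 and 0.20, and on the deposited scaling 0.55 and 0.37, with unadjusted p above 0.05 in both settings. The unadjusted p of both also exceeded 0.05 with arrays centred on their median and without limma's variance trend. The same held without mutant 3 and without control 2, and for Eci2 without control 1.

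Crot, carnitine octanoyltransferase, which exports the shortened chains from peroxisomes, was lower in mutant liver and varied little within either group. The 3 mutants read 10.20, 10.11 and 10.01 and the 3 controls 11.19, 11.06 and 10.99. The groups were far apart for their spread, with means of 10.11 ± 0.10 in mutant liver and 11.08 ± 0.10 in control liver (SD, n = 3 each) and a difference of -0.97 (SE 0.19, 1.96-fold lower, adjusted p = 0.151, limma). It was -1.01 after adjusting for the 3'/5' RNA index, -0.97 without mutant 2 and -1.02 without mutant 1, the mutant nearest the controls. In that last setting it passed (adjusted p = 0.0337, limma), as did 0.485% of all probe sets. Leaving out the mutant nearest the controls favours a pass, so it adds no support for a difference. Crot did not pass without mutant 2 or mutant 3 (adjusted p = 0.0624 and 0.454, limma). Nor did it pass without controls 1 to 3 in turn (adjusted p = 0.681, 0.636 and 0.363, limma). Unlike Nudt7 and Pdk4, Crot thus had about the same value in all 3 mutant livers. Its difference, like that of Crat, changed little after adjusting for the 3'/5' RNA index, but did not pass there (adjusted p = 0.544, limma).

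**Figure D3:**
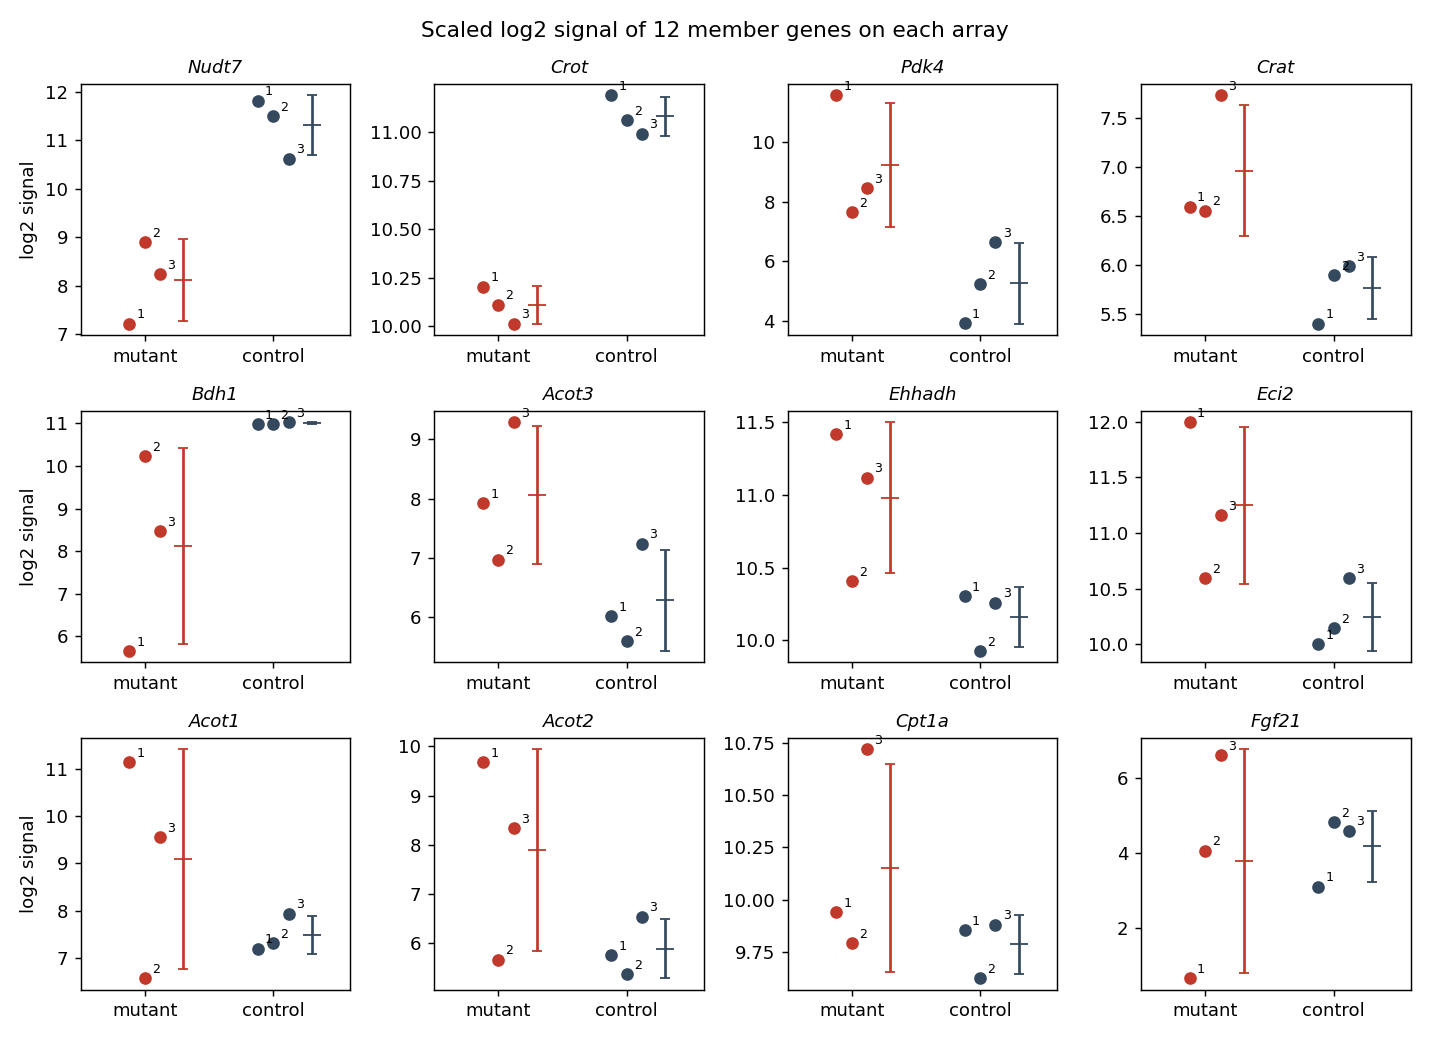
Each panel shows 1 gene, with the log2 signal of its brightest probe set on the 3 mutant arrays (left, red) and the 3 control arrays (right, dark), numbered by replicate, and the mean ± SD beside them; each vertical axis has its own range. Crot and Nudt7 separate cleanly, Acot1 and Acot2 are high on mutants 1 and 3 only, and Fgf21 spreads from 0.64 to 6.62 over the mutants.

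Other peroxisomal members did not separate the groups on their brightest probe sets. Hsd17b4, the multifunctional enzyme for branched chains, had a difference of 0.37 and Pex11a, which promotes peroxisome division, of 0.13 (95% confidence interval -0.58 to 0.83). Decr2, the peroxisomal dienoyl-CoA reductase, read 6.26, 8.96 and 8.70 in mutants 1 to 3 and 8.59, 8.65 and 9.24 in controls 1 to 3, low on mutant 1 only. Scp2, the sterol carrier protein and thiolase, gave differences between -0.50 and 0.47 over its 4 probe sets. The peroxisomal thiolases Acaa1a and Acaa1b are near-identical copies that probes may not tell apart. Acaa1b had 10.79, 12.30 and 11.97 in mutants 1 to 3 and 12.30, 11.98 and 12.29 in controls 1 to 3, again low on mutant 1, and the 2 probe sets annotated to both genes differed by -0.53 and -0.28. Acaa1a had differences of 0.05 and 0.57 on its 2 probe sets, the second with all mutants above all controls.

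Among the thioesterases, Acot1, Acot2 and Acot3 had positive differences in mutant liver and Acot4, Acot8 and Acot12 negative ones. Acot1, a cytosolic enzyme for long acyl chains and a known responder to PPARalpha, read 11.14, 6.57 and 9.55 on mutant arrays 1 to 3, against 7.20, 7.32 and 7.93 on control arrays 1 to 3. Mutants 1 and 3 exceeded every control, while mutant 2 lay below all of them. Acot2, its mitochondrial counterpart, followed the same order, with 9.68, 5.66 and 8.34 in mutants 1 to 3 and 5.75, 5.36 and 6.54 in controls 1 to 3. Their differences of 1.61 (SE 0.98) and 2.01 (SE 0.90) did not pass (adjusted p = 0.451 and 0.368, limma). Without mutant 2 they were 2.87 and 3.13 and passed (adjusted p = 0.0386 and 0.0343, limma), as did 2.14% of all probe sets. That setting leaves out the 1 mutant array without the high signal, so it adds no support for a difference. A probe set annotated to both genes, 1422997_s_at, gave 10.95, 6.61 and 9.55 in mutants 1 to 3 and 7.37, 7.31 and 8.01 in controls 1 to 3. These genes have similar coding sequences, so signal from 1 can reach the probes of the other.

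Acot3, a peroxisomal thioesterase in mouse, read 7.92, 6.97 and 9.29 on mutant arrays 1 to 3, against 6.01, 5.59 and 7.24 on control arrays 1 to 3. Mutant 3 was the highest array here, and mutant 2 lay below control 3 (difference 1.78, SE 0.63, adjusted p = 0.329, limma). The difference was 0.97 after adjusting for the 3'/5' RNA index, 1.16 without mutant 3, 1.65 without control 1 and 1.43 without control 2, each with an unadjusted p above 0.05. Acot4, which acts on succinyl-CoA in mouse peroxisomes, had 4.48, 6.03 and 6.39 in mutants 1 to 3 and 5.55, 5.92 and 6.06 in controls 1 to 3, so that it did not share the high signal of Acot1 to Acot3 on mutant 1. In RefSeq the 4 are consecutive protein-coding genes on chromosome 12, in the order Acot2, Acot1, Acot4 and Acot3. Acot8, a peroxisomal enzyme of broad range, and Acot12, a cytosolic acetyl-CoA hydrolase, differed by -0.32 (95% confidence interval -1.15 to 0.51) and -0.27 (-0.83 to 0.29).

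**Figure D4:**
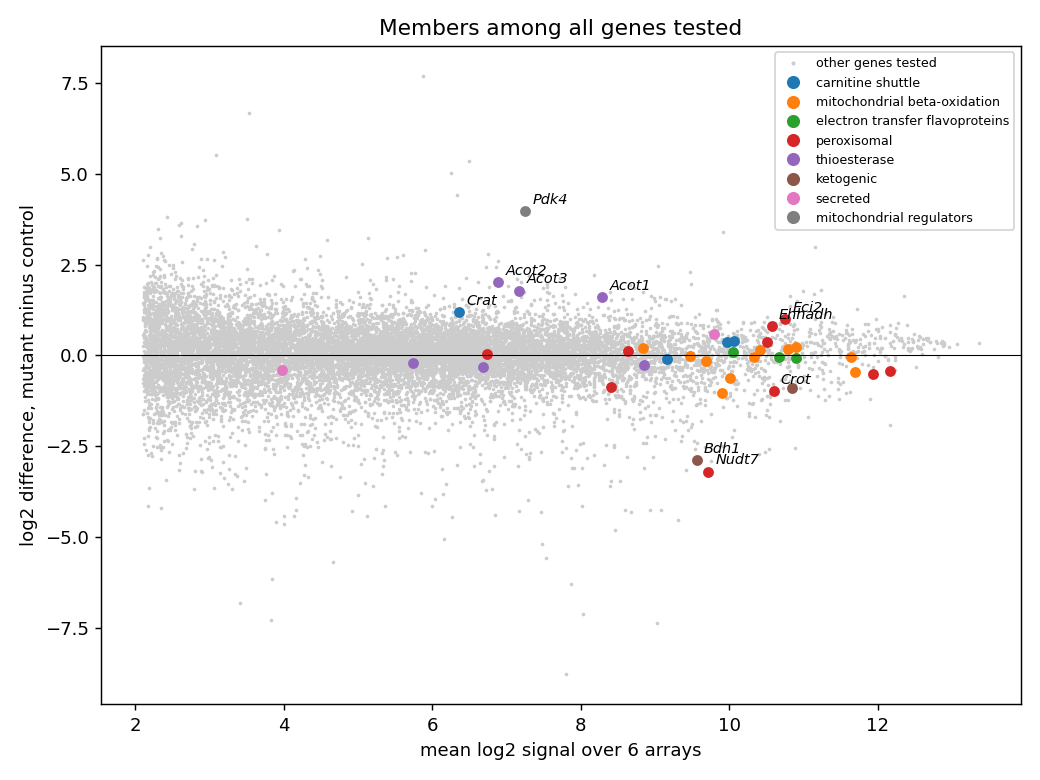
The horizontal axis is the mean log2 signal over the 6 arrays and the vertical axis the log2 difference, mutant minus control; grey points are the 13144 genes tested and coloured points the 39 measured members by role. Most members lie in the bright part of the range near 0, while Pdk4 at 3.96, Nudt7 at -3.20 and Bdh1 at -2.88 stand away from most genes of like signal.

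Both ketogenic members were lower in mutant liver on average. Bdh1, the mitochondrial beta-hydroxybutyrate dehydrogenase that interconverts the 2 main ketone bodies, gave 5.65, 10.23 and 8.47 on mutant arrays 1 to 3, against 10.99, 10.99 and 11.03 on control arrays 1 to 3. The controls lay within 0.04 of each other, and all mutants lay below them to very different extents, mutant 1 by far the lowest. Its difference was -2.88 (SE 0.96, 95% confidence interval -5.10 to -0.66, adjusted p = 0.319, limma). The second probe set, 1426959_at, showed the same order, with 3.37, 7.97 and 5.89 in mutants 1 to 3 and 8.61, 8.88 and 9.17 in controls 1 to 3. Without mutant 2, the mutant nearest the controls, both passed (-3.94 and -4.25, adjusted p = 0.0458 and 0.0343, limma), as did 2.14% of all probe sets. Leaving out that array favours a pass, so it adds no support for a difference. Without mutant 1 the difference on the first probe set was -1.65. After adjusting for the 3'/5' RNA index it was -0.30.

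Acat1, the mitochondrial acetoacetyl-CoA thiolase that starts ketogenesis, read 8.97, 11.22 and 10.99 on mutant arrays 1 to 3, against 11.42, 11.16 and 11.29 on control arrays 1 to 3. Mutants 2 and 3 were within or near the control range and mutant 1 far below (difference -0.90, 95% confidence interval -2.15 to 0.35). Its other probe sets differed by -0.65 and -1.04, and on the last of these the groups did not overlap.

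The 2 secreted members showed no common pattern. Fgf21, the fasting hormone that liver releases under PPARalpha, was dim and the most variable member, with 0.64, 4.06 and 6.62 on mutant arrays 1 to 3, against 3.10, 4.82 and 4.60 on control arrays 1 to 3. Mutants 1 and 3 were the lowest and highest of all 6 arrays, and the interval of the difference, -3.44 to 2.64, excludes little. Angptl4, which inhibits lipoprotein lipase, had 10.16, 9.69 and 10.41 in mutants 1 to 3 and 8.96, 9.68 and 9.83 in controls 1 to 3 on its bright probe set (difference 0.60, SE 0.30, adjusted p = 0.394, limma). That difference was 0.15 on the deposited scaling, 0.37 with arrays centred on their median, 0.33 without control 1, 0.29 after adjusting for the 3'/5' RNA index and 1.53 as a mean over its probe sets. Its dim probe set, 1453410_at, read 7.39, 3.32 and 3.06 in mutants 1 to 3 and 2.12, 2.11 and 2.16 in controls 1 to 3, with the controls below background and mutant 1 far above the rest.

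Of 20 members with more than 1 kept probe set, 15 had differences of 1 sign on all of them and 5 of both signs. Probe sets under the filter were Acadl 1448988_at, with 2.88, 0.00 and 2.28 in mutants 1 to 3 and 0.00, 1.91 and 2.88 in controls 1 to 3, Crot 1440474_at, with 1.84, 0.24 and 2.27 in mutants 1 to 3 and 0.42, 0.00 and 0.00 in controls 1 to 3, and Acot12 1433064_at, with 1.40, 0.00 and 2.51 in mutants 1 to 3 and 1.30, 1.74 and 0.00 in controls 1 to 3; none of the 3 was tested. The 5 with both signs were Acot4, Hadh, Hadhb, Hsd17b4 and Scp2, and of their probe sets only Hadhb 1442732_at had an unadjusted p under 0.05.

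Other genes of the pathway were taken from 4 lists, of which 48 of 57 genes were measured. None passed limma's test over all probe sets, and at an unadjusted p under 0.05 there were 7 higher and 4 lower of 48, against 7.36% and 7.01% of all genes, with a median difference of -0.14, beside 0.06 over all genes. The receptor itself, Ppara, read 7.30, 9.68 and 9.31 on mutant arrays 1 to 3, against 9.73, 9.29 and 10.05 on control arrays 1 to 3. Only mutant 1 lay well below the controls (difference -0.92, 95% confidence interval -2.26 to 0.41), and none of the 8 regulators measured, among them Rxra and Ppargc1a, had an unadjusted p under 0.05. Of 24 other oxidation and transport enzymes 4 were higher and 1 lower at this level, where 7.36% and 7.01% of all genes were. Nudt19, a second peroxisomal coenzyme A hydrolase, was higher in all mutants, with 9.17, 9.19 and 8.89 in mutants 1 to 3 and 8.40, 8.26 and 8.23 in controls 1 to 3 (difference 0.79, adjusted p = 0.270, limma), where Nudt7 was lower. Mlycd, malonyl-CoA decarboxylase, which removes the inhibitor of Cpt1a, had 8.43, 7.81 and 8.83 in mutants 1 to 3 and 7.02, 7.33 and 7.71 in controls 1 to 3, with no overlap (difference 1.003). Slc22a5, the carnitine transporter of the cell membrane, read 9.64, 6.50 and 8.46 in mutants 1 to 3 and 5.76, 6.09 and 6.67 in controls 1 to 3, high on mutants 1 and 3 as Acot1 and Acot2 were.

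Of 4 other ketone body genes 1 was lower. Bdh2, a cytosolic relative of Bdh1, had the smallest p of the lists, with 3.41, 3.55 and 3.81 in mutants 1 to 3 and 6.47, 5.42 and 5.09 in controls 1 to 3, close together in the mutants and all below the controls (difference -2.07, SE 0.41, adjusted p = 0.151, limma). The mutant signals lay not far above the mutant background of 3.02, which limits what their closeness can show. Among 12 other genes listed as PPARalpha targets 3 were higher and 2 lower, where 7.36% and 7.01% of all genes were, with a median of 0.67, beside 0.06 over all genes. Cyp4a14, a fatty acid omega-hydroxylase, read 12.78, 11.72 and 12.60 in mutants 1 to 3 and 10.62, 10.88 and 11.75 in controls 1 to 3, with mutant 2 just below the highest control. Txnip, which restrains glucose uptake and binds thioredoxin, had 10.53, 9.17 and 9.61 in mutants 1 to 3 and 7.59, 7.76 and 9.04 in controls 1 to 3, without overlap (difference 1.64). Pnpla2, the triglyceride lipase, read 10.87, 7.81 and 9.13 in mutants 1 to 3 and 7.26, 7.37 and 7.91 in controls 1 to 3, with mutant 2 inside the control range (difference 1.76). Vnn1, the pantetheinase that acts in coenzyme A turnover, was lower in every mutant, with 7.03, 7.09 and 7.82 in mutants 1 to 3 and 8.67, 7.88 and 8.71 in controls 1 to 3 (difference -1.11, adjusted p = 0.296, limma).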

How the data were processed

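Liver RNA from 3 mutant and 3 control mice was hybridised to Affymetrix arrays, and samples were grouped by their titles. The deposited values are linear intensities, made with GCOS per the submitters' processing notes; algorithm and target are unknown here. Of 45101 probe sets 64 were controls, 34945 had 1 gene symbol, 932 several and 9160 none listed. For 34741 the symbol was taken from RefSeq by Entrez identifier, whether or not it changed. Mean signals, trimmed by 2% at each end, were 37.3 to 58.1 in mutants and 55.2 to 69.9 in controls. Arrays were scaled to a common trimmed mean, values under 1 set to 1 (12.4% to 17.1% of probe sets) and log2 taken; a shift shared by most transcripts would not show. The lower 40% by mean signal were left out. Groups were compared two-sided by limma 3.58.1 (R 4.3.3, lmFit and eBayes with a variance trend). Only this fit, not the scaling, floor or filter, was tried on simulated data. Background was the 95th percentile of group means over 86 olfactory, vomeronasal and taste receptor probe sets, 3.02 in mutants and 2.85 in controls, and folds written "at least" are against it.

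Members, lists and tests were chosen with earlier results of these data known. The rule for array values took members with an unadjusted p under 0.05, the smallest p of each role, Ppara and up to 8 genes of the pathway lists; others given array by array were chosen after their values were seen. Other scalings, filters, offsets and fits, each array left out and the replicate number as a block were tried. The number of arrays limits the precision, and p-values measure the spread between these 6 mice.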

Additional observations from a re-analysis of the deposited data

How the results depend on the processing

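Over 16 alternative settings the 11 members with an unadjusted p under 0.05 or the smallest p of their role (Nudt7, Crot, Pdk4, Crat, Bdh1, Acot3, Ehhadh, Eci2, Decr1, Angptl4 and Etfdh) kept their direction in 174 of 176 values; the exceptions were Etfdh at -0.35 on the deposited scaling and -0.13 with arrays centred on their median. These scalings put the median of all probe sets at -0.37 and -0.15, in place of 0.08. The 11 members were chosen by p-values from these same arrays, so a kept direction adds little. Kept directions include values near 0, such as -0.01 for Decr1 and 0.08 for Eci2 after adjusting for the 3'/5' RNA index. Probe sets past the threshold, 20 in all, numbered 35 on the deposited scaling, 0 with dim probe sets retained (limma; at an unadjusted p under 0.05, 2876 higher and 1828 lower), 11 with the lower 60% left out, 107 after log2(signal + 32), 9 without the variance trend and 5 after adjusting for the 3'/5' RNA index. Leaving out 1 array gave 2 to 579, with 131 without mutant 1, 579 without mutant 2, 8 without mutant 3, and 4, 2 and 5 without controls 1 to 3. Member probe sets past the threshold, 0 of 69 (limma; at an unadjusted p under 0.05, 7 were higher and 8 lower), numbered 3 after log2(signal + 32), all of Nudt7, and 0 to 7 with 1 array left out: 3 without mutant 1 and 7 without mutant 2. Members higher at an unadjusted p under 0.05, 5 in all, numbered 2 on the deposited scaling, 3 with median-centred arrays, 3 without the variance trend, 1 after adjusting for the index, and 2 to 9 with 1 array left out: 9 without mutant 2, and 2 without mutant 3, control 1 or control 2. The share of all genes higher, 7.36%, was 1.46%, 3.16%, 6.11% and 2.68% in the first 4 of these settings, 12.5% without mutant 2, 5.18% without mutant 3, 3.72% without control 1 and 3.99% without control 2. Members lower, 3 in all, numbered 3 to 5 with 1 array left out, the 5 without mutant 2, where the share of all genes lower was 12.4% in place of 7.01%. The cause of these changes was not tested.

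With the replicate number of the titles as a block, 22 probe sets passed and no member did. At an unadjusted p under 0.05, 6 members were then higher and 3 lower, against 6.5% and 6.53% of all genes. The unadjusted p of Acot3 was 0.00055 and that of Bdh1 0.0083 with this block (limma), in place of 0.022 and 0.017. Deviations of same-numbered arrays from their group means correlated at -0.04, 0.02 and 0.04. Such correlations, taken from means of 3 arrays, cannot show whether the numbers pair the mice, and the titles do not say.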
